A study of Xenopus laevis with 45 samples.

Results

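The genes described here make adrenal steroids from cholesterol in the frog Xenopus laevis. They were taken from a table of 45038 genes as every row whose name, without the chromosome suffix and a trailing digit, was star, cyp11a1, hsd3b1, cyp17a1, cyp21a2, cyp11b1 or cyp11b2. Of these 7 names 4 had rows, giving 6 members: star.L, star.S, cyp11a1.S, hsd3b1.L, hsd3b1.S and cyp21a2.1.L; cyp17a1, cyp11b1 and cyp11b2 were not analysed here. The suffixes .L and .S mark the long and short chromosome sets of this allotetraploid species. The names were chosen by the level of cyp21a2.1.L, which was low at stage 37/38 after injection of one erythroferrone morpholino (MO1). Its contrast with the control morpholino at that stage is therefore given below as a description, without a test.

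RNA was sequenced from whole embryos after knockdown of erythroferrone (ERFE), a hormone that red cell precursors release to lower hepcidin and so raise iron supply. Cleavage-stage embryos received 10 ng of the morpholino ERFE MO1, 20 ng of the morpholino ERFE MO2, or the same amount (10 or 20 ng) of a standard control morpholino (cMO), always in vegetal blastomeres, and uninjected embryos formed the fifth condition. All were kept in 0.1x MBS and collected at stage 35/36, 37/38 or 41, with 3 libraries for each of the 15 groups, 45 in all. A morpholino is a synthetic antisense oligomer that blocks the translation or the splicing of a transcript; no label gives a mutant line, a transgene or the number of embryos in a library, and the injection is not specific to one tissue.

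In vertebrates steroid hormone synthesis begins when the StAR protein carries cholesterol into the mitochondrion, where Cyp11a1 cuts off its side chain to give pregnenolone. Hsd3b1 converts pregnenolone to progesterone, and Cyp21a2 (21-hydroxylase) adds the hydroxyl group that sets a molecule on the path to corticosteroids. In frogs the cells that do this are the interrenal cells, which lie along the kidney together with chromaffin cells, and their main products are corticosterone and aldosterone. Cyp21a2 serves only corticosteroid synthesis, whereas the earlier steps are shared with gonadal steroid synthesis.

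Totals ran from 19342567 to 41922031 counts per library (median 32828061), and 31817 genes passed a filter on low counts, all 6 members among them. The library labelled ERFE MO2 stage 35/36 replicate 1 stood apart. It differed from ERFE MO1 stage 37/38 replicate 2 by a chi-square of only 1.22 per gene. The next closest of 990 pairs of libraries reached 3.78, and the closest pair within a group 10.2. ERFE MO1 stage 37/38 replicate 2 belongs to the contrast that led to the choice. The label of the library that stood apart may be wrong, which was not tested. Its stage score, the position of a library on the change from stage 35/36 to 41 in uninjected embryos, was 0.231, against 0.0202 and -0.0160 in the other 2 libraries of its group. The score of ERFE MO1 stage 37/38 replicate 2 was 0.232. Several MO2 results of cyp11a1.S and cyp21a2.1.L are therefore also given without the library that stood apart. Most other results that use it are given with it only. The targeted gene, fam132b.L, had a log2 fold change between -0.86 and 0.05 in the 6 comparisons of an ERFE morpholino with its cMO, and none passed an adjusted p of 0.05 (0.526 to 1).

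All 6 members were scarce in whole-embryo RNA. Their sums over the 45 libraries were 715 counts for star.L, 411 for star.S, 1983 for cyp11a1.S, 2572 for hsd3b1.L, 1391 for hsd3b1.S and 1618 for cyp21a2.1.L. A single library held between 2 and 97 counts of cyp21a2.1.L and between 0 and 24 of star.S, so counting error alone was large. Levels are in CPM, counts scaled to the same library size and not corrected for transcript length, and are compared between libraries, never between genes. In a whole embryo, fewer interrenal cells and less RNA per cell cannot be told apart.

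The uninjected and cMO embryos gave the background of each member. In 9 comparisons among these groups (10 ng or 20 ng cMO against uninjected, and 20 ng against 10 ng cMO, for each stage) edgeR's quasi-likelihood test and DESeq2 called 0 of 54 values, and 0 had an unadjusted p under 0.05. The log2 fold changes lay between -0.76 and 0.92. Of all genes tested, 0%, 0.00629%, 0.0126% or 0.0157% were called in a comparison. An unadjusted p under 0.05 was found for 183 to 651 of 31817 genes in a comparison.

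The gene for cholesterol entry, star.L, was low in both ERFE groups and in the uninjected group at stage 35/36. The uninjected libraries of that stage had 0.265, 0.197 and 0.715 CPM. Injection of 10 ng cMO gave 0.699, 0.719 and 0.770 CPM, and MO1 gave 0.347, 0.305 and 0.415 CPM. The MO1 libraries all lay below the 10 ng cMO libraries but inside the uninjected range. The log2 fold change against cMO was -1.03 ± 0.45 (SE, n = 3 against 3), with an adjusted p of 0.680 by edgeR. With MO2 the levels were 0.480, 0.258 and 0.444 CPM, against 0.319, 0.963 and 0.715 CPM with 20 ng cMO, and the groups overlapped.

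At stage 41 star.L had its highest group means with MO2 and MO1 and its lowest in uninjected embryos. The 3 uninjected libraries had 0.299, 0.291 and 0.343 CPM. The MO1 libraries, at 0.702, 0.454 and 0.558 CPM, lay above them and overlapped the 10 ng cMO libraries at 0.638, 0.184 and 0.323 CPM. With MO2 the levels were 0.661, 0.753 and 0.641 CPM, above all libraries with 20 ng cMO (0.545, 0.383 and 0.515 CPM). The differences from cMO did not pass the test: the log2 fold change was 0.57 ± 0.45 for MO1 (adjusted p = 0.675) and 0.50 ± 0.44 for MO2 (adjusted p = 0.913). Nor did MO1 against uninjected embryos, at 0.88 ± 0.46 (adjusted p = 0.471). The change of the MO1 response from stage 35/36 to 41 was 1.60 ± 0.64 on the log2 scale (95% interval 0.31 to 2.89, edgeR adjusted p = 0.9999), where edgeR called 0.00629% of all genes. For MO2 the same difference was 1.20 ± 0.63, where edgeR called 0% of all genes.

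The second copy, star.S, was the scarcest member, and its MO1 group had the lowest mean of the conditions at every stage. At stage 35/36 the MO1 libraries held 0, 3 and 2 counts, which is 0, 0.102 and 0.0639 CPM; in the library with 0 counts the limit of 3 counts corresponds to 0.0868 CPM. Against that stood 0.331, 0.270 and 0.285 CPM with 10 ng cMO, and 0.227, 0.0657 and 0.429 CPM without injection. All MO1 libraries lay below all cMO libraries, while the lowest uninjected library fell inside the MO1 range. At stage 41 the MO1 libraries had 0.0780, 0.151 and 0.206 CPM, against 0.460, 0.184 and 0.264 CPM with cMO, and the groups overlapped. They also overlapped the uninjected libraries of that stage, at 0.224, 0.159 and 0.1246 CPM. The log2 fold change for MO1 was -2.39 ± 0.74 early (adjusted p = 0.251) and -1.08 ± 0.62 late (adjusted p = 0.524).

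With MO2 the star.S libraries lay among the controls. Stage 35/36 gave 0.0505, 0.207 and 0.412 CPM, stage 37/38 gave 0.216, 0.389 and 0.461 CPM, and stage 41 gave 0.535, 0.452 and 0.321 CPM. Each of these groups overlapped its 20 ng cMO group. The mean log2 fold change of star.S over the 3 stages was 0.25 ± 0.34 with an adjusted p of 0.856. Set against each other, the MO1 response was below the MO2 response by 2.72 ± 0.99 at stage 35/36 and by 1.52 ± 0.83 at stage 41. Neither difference passed (edgeR adjusted p = 0.99999 and 0.9998), and no gene was called in either comparison of the morpholinos (0% of all genes). Against uninjected embryos at stage 41, the MO2 libraries were higher without overlap for star.S (1.36 ± 0.60, adjusted p = 0.394) and star.L (1.13 ± 0.46, adjusted p = 0.329), as were 6.25% of all genes. The 20 ng cMO libraries were also above the uninjected ones without overlap for both copies (2.55% of all genes), with log2 fold changes of 0.92 ± 0.61 for star.S and 0.63 ± 0.47 for star.L (adjusted p = 0.99996 for each).

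**Figure D1:**
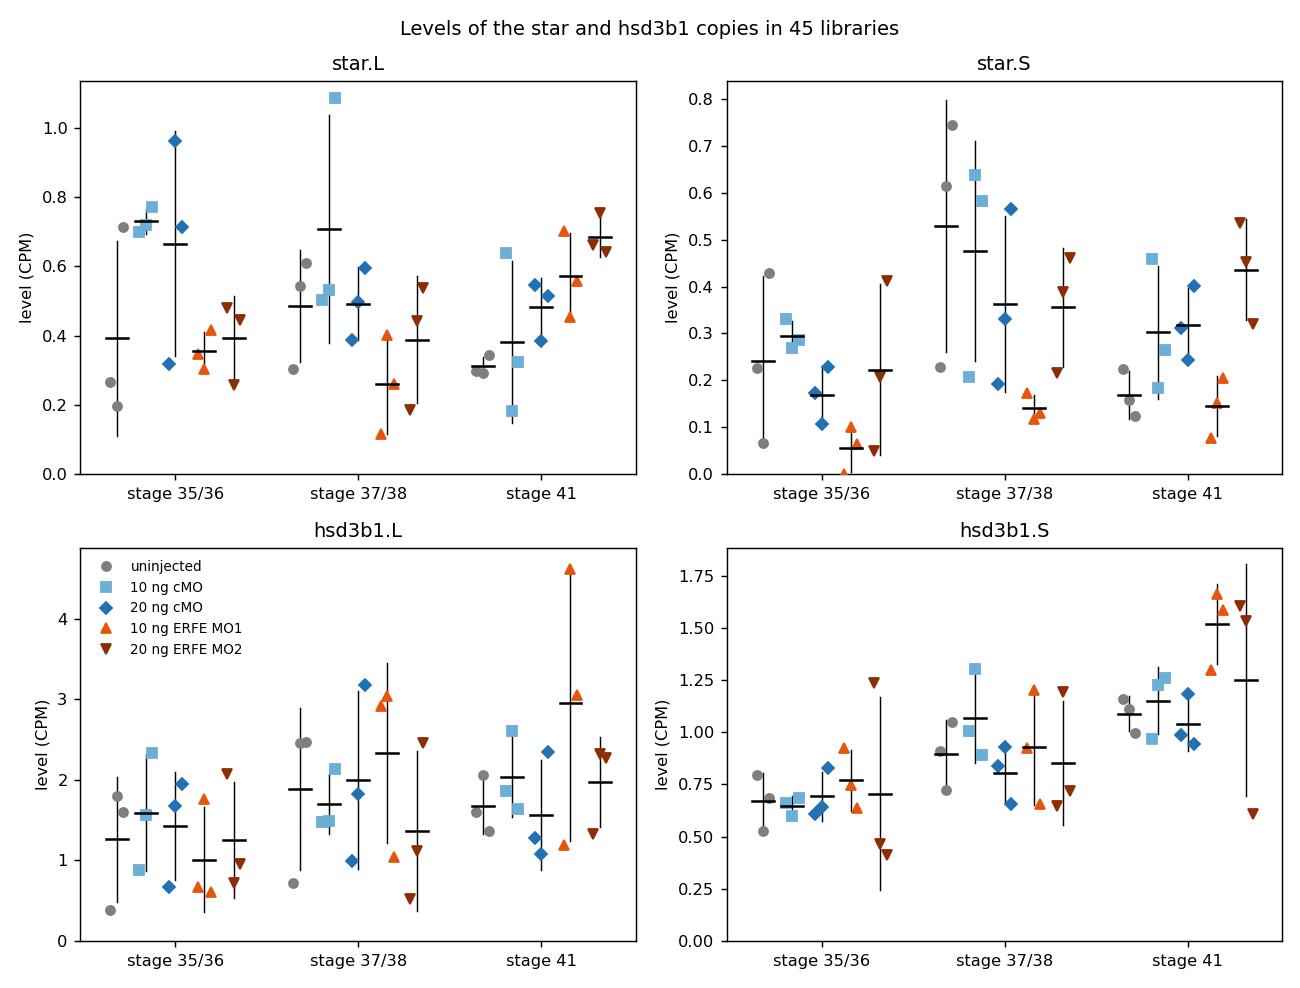
Levels of star.L, star.S, hsd3b1.L and hsd3b1.S in CPM (y axes, 1 panel per gene) for 5 conditions at 3 stages (x axis); each point is a library, the black bar the mean of 3 libraries and the vertical line ± 1 SD, cut off at 0. The MO1 points of star.S at stage 35/36 lie between 0 and 0.102 CPM, under all 3 points of the 10 ng cMO, and the hsd3b1 points of the conditions overlap at most stages.

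The gene for side-chain cleavage, cyp11a1.S, had its lowest group means with MO2 at stages 35/36 and 37/38, and the decrease with MO2 passed the test over the mean of the stages. At stage 35/36 the MO2 libraries had 0.808, 0.362 and 0.508 CPM, against 0.841, 2.21 and 1.89 CPM with 20 ng cMO and 1.02, 1.28 and 2.26 CPM without injection. At stage 37/38 they had 0.370, 0.804 and 0.410 CPM, against 1.13, 1.69 and 1.81 CPM with cMO and 1.25, 1.37 and 1.86 CPM without injection. At both stages every MO2 library lay below every cMO library and every uninjected library. At stage 41 the gap narrowed: the MO2 libraries had 0.882, 1.99 and 0.994 CPM and overlapped the 20 ng cMO libraries at 1.56, 1.74 and 2.09 CPM.

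Over the mean of the 3 stages cyp11a1.S fell by 1.17 ± 0.25 on the log2 scale with MO2 (95% interval -1.68 to -0.65, edgeR adjusted p = 0.00698), in 9 MO2 against 9 cMO libraries. It was the 1 member of 6 called in that comparison, in which edgeR called 2.67% of all genes. The call was also made under all 23 alternatives, with adjusted p between 3.08e-04 and 0.0190, and without the library that stood apart it was -1.30 ± 0.27 (adjusted p = 0.00367). No stage was called alone. The log2 fold change was -1.498 ± 0.45 at stage 35/36 (adjusted p = 0.470). It was -1.53 ± 0.45 at stage 37/38 (adjusted p = 0.313), and at stage 41 it was -0.48 ± 0.42 (adjusted p = 0.915). At stage 37/38 the same-numbered libraries as a replicate block gave -1.55 ± 0.37 with an adjusted p of 0.0257, and a lane term gave 0.0373, where the alternatives ranged up to 1. Against uninjected embryos at that stage the value was -1.49 ± 0.45 (adjusted p = 0.283, and 0.0230 with the replicate block, of a range up to 1).

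With MO1 the levels of cyp11a1.S lay between those of MO2 and cMO at stage 35/36. In the comparisons that leave out stage 37/38 no difference from cMO passed with edgeR. The earliest stage gave 0.694, 1.19 and 1.66 CPM, against 1.29, 1.59 and 2.45 CPM with 10 ng cMO. The levels at stage 41 were 0.572, 1.85 and 0.529 CPM, against 2.04, 1.68 and 1.64 CPM with cMO. Replicate 2 lay among the cMO libraries and replicates 1 and 3 well below them. The mean over these 2 stages was -0.75 ± 0.30 (adjusted p = 0.222), with 0.0200 for the replicate block, 0.0233 for the lane term and 0.0318 (-1.15 ± 0.30) without MO1 stage 41 replicate 2; over all 19 alternatives it ran from 0.0200 to 0.455. The mean over all 3 stages, which includes the contrast that led to the choice, was -0.85 ± 0.25 and is given without a test. At stage 41 alone the value was -0.89 ± 0.43 (adjusted p = 0.401), and with the replicate block -1.01 ± 0.34 (adjusted p = 0.0463, the lowest of the alternatives, which reached 0.673). The MO1 and MO2 responses differed by 0.90 ± 0.62 at stage 35/36 (95% interval -0.35 to 2.15) and by -0.42 ± 0.60 at stage 41 (-1.63 to 0.80), neither past the test.

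The copies of hsd3b1, the next step, gave no call against cMO with either morpholino. At stage 41 hsd3b1.S had 1.30, 1.66 and 1.59 CPM with MO1, above the 10 ng cMO libraries at 0.970, 1.23 and 1.26 CPM, and the log2 fold change was 0.39 ± 0.31 (adjusted p = 0.679). In the other stages and with MO2 the groups of hsd3b1.S overlapped. With MO2 at stage 35/36 the overlap came from the library that stood apart, at 1.24 CPM. The other MO2 libraries, at 0.465 and 0.412 CPM, lay below the 20 ng cMO libraries at 0.609, 0.642 and 0.829 CPM. The log2 fold change there was 0.07, and alternatives ran from -0.67 to 0.37. For hsd3b1.L the 3 libraries of a group spread too widely to separate any pair: the MO1 libraries at stage 41 ran from 1.20 to 4.62 CPM, and its log2 fold changes against cMO lay between -0.67 ± 0.60 (MO1, stage 35/36) and 0.53 ± 0.57 (MO1, stage 41) where a test was made. The mean MO2 response over 3 stages was -0.12 for hsd3b1.L (adjusted p = 0.945) and 0.14 for hsd3b1.S (adjusted p = 0.849).

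The gene for 21-hydroxylase, cyp21a2.1.L, was low with MO1 at all 3 stages. The description that led to its choice comes first. At stage 37/38 the MO1 libraries held 3, 8 and 13 counts, or 0.0866, 0.189 and 0.425 CPM. With 10 ng cMO they held 44, 97 and 61 counts, or 1.299, 2.58 and 2.37 CPM, and without injection 0.948, 1.27 and 2.44 CPM. The MO1 mean was 11.2% of the cMO mean and 15.1% of the uninjected mean, with no overlap, and the log2 fold change was -3.17 ± 0.61 against cMO. Of all genes 0.6% were called in that contrast and 0.94% against uninjected embryos. Among the other members star.L and star.S were lower than cMO without overlap, as were 7.73% of all genes. The low level of cyp21a2.1.L led to the choice, so it is not counted beside that share. In the same contrast the members other than cyp21a2.1.L had log2 fold changes of -1.39 (star.L), -1.73 (star.S), -1.06 (cyp11a1.S), 0.47 (hsd3b1.L) and -0.20 (hsd3b1.S).

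Members were chosen with earlier results of these data known, so the libraries of the other stages are no independent check. Those libraries were not part of the contrast that led to the choice. There cyp21a2.1.L had at stage 35/36 0.174, 0.508 and 0.0958 CPM with MO1, against 0.846, 0.929 and 1.43 CPM with 10 ng cMO. At stage 41 it had 0.130, 0.870 and 0.794 CPM with MO1, against 1.404, 1.96 and 1.58 CPM with 10 ng cMO and 1.38, 1.64 and 1.06 CPM without injection. All MO1 libraries lay below all cMO libraries at both stages, and below all uninjected libraries at stage 41. The lowest uninjected library of stage 35/36, at 0.340 CPM, fell within the MO1 range.

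Averaged over stages 35/36 and 41, cyp21a2.1.L fell by 1.77 ± 0.42 on the log2 scale with MO1 (95% interval -2.62 to -0.93, edgeR adjusted p = 0.0122; 6 against 6 libraries). This mean, chosen after the data were seen because it leaves out stage 37/38, called 2 of the 6 members, both lower, where edgeR called 2.73% of all genes and 1.02% as lower. The call of cyp21a2.1.L was made under all 19 alternatives, with adjusted p from 9.02e-05 to 0.0479, the highest without ERFE MO1 stage 35/36 replicate 1. The other called member was star.S, at -1.73 ± 0.48 (adjusted p = 0.0432). It was called under 8 of 19 alternatives, with adjusted p from 0.00474 to 0.147. The call of star.S was lost without replicate 1, 2 or 3 of the 10 ng cMO at stage 35/36, replicate 1 or 3 of MO1 at stage 35/36, replicate 1 or 3 of the cMO at stage 41 or replicate 1 or 2 of MO1 at stage 41.

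Stage by stage the MO1 response of cyp21a2.1.L did not pass: it was -2.05 ± 0.62 early (adjusted p = 0.219) and -1.49 ± 0.56 late (adjusted p = 0.221). With the replicate block it passed at both (adjusted p = 0.0112, and -1.57 ± 0.38 with 0.00520), as it did with a lane term (0.0376 and 0.0143); the alternatives reached 0.777 and 0.362. The block also called star.S at stage 35/36 (adjusted p = 0.0426, of a range up to 0.881). Against uninjected embryos it was -1.56 ± 0.63 early (adjusted p = 0.492) and -1.22 ± 0.56 late (adjusted p = 0.368, with 0.0275 for the block, of a range up to 0.590). The stage 41 response minus the stage 35/36 response was 0.56 ± 0.83 (95% interval -1.11 to 2.24).

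With MO2 cyp21a2.1.L had low group means at stages 35/36 and 37/38 and overlapped the controls at stage 41. The MO2 libraries of stage 35/36 had 0.227, 0.103 and 0.508 CPM and those with 20 ng cMO 0.377, 0.998 and 1.17 CPM. At stage 37/38 they had 0.432, 1.06 and 1.18 CPM, against 1.54, 1.76 and 2.70 CPM with cMO, and did not overlap. At stage 41 they had 0.693, 1.87 and 1.25 CPM, against 1.30, 1.78 and 2.09 CPM, and overlapped. The MO2 means were 32.9%, 44.5% and 73.8% of the cMO means at the 3 stages in turn, and the log2 fold changes were -1.52 ± 0.62, -1.16 ± 0.53 and -0.43 ± 0.53 (edgeR adjusted p = 0.806, 0.903 and 0.967).

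Over the 3 stages the MO2 response of cyp21a2.1.L was -1.04 ± 0.32 and missed the threshold (edgeR adjusted p = 0.0795). It passed under 4 of 23 alternatives: with DESeq2 (adjusted p = 0.0300), the replicate block (0.00201), a lane term (0.00602), and without ERFE MO2 stage 35/36 replicate 3 (0.0404). The highest adjusted p was 0.167, and without the library that stood apart the value was -0.98 ± 0.34 (adjusted p = 0.130). The MO1 and MO2 responses of cyp21a2.1.L differed by -0.53 ± 0.88 at stage 35/36 (95% interval -2.32 to 1.26) and by -1.06 ± 0.76 at stage 41 (-2.61 to 0.49). These intervals include both no difference and differences of more than 2 on the log2 scale, so the morpholinos were neither separated nor shown to act alike.

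**Figure D2:**
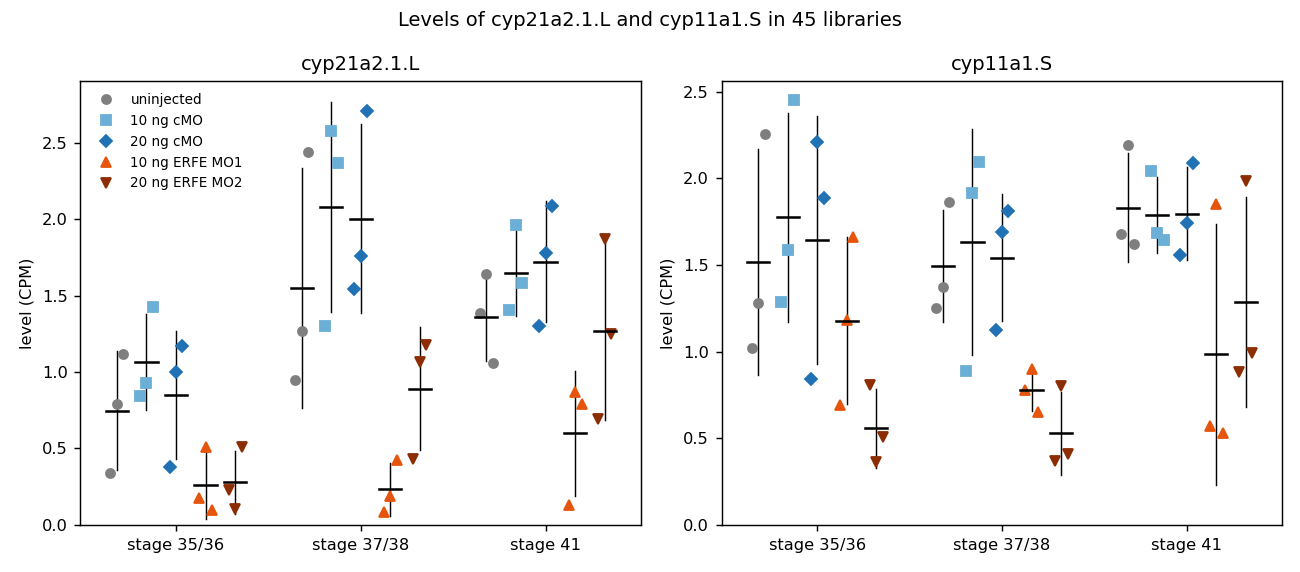
Levels of cyp11a1.S and cyp21a2.1.L in CPM (y axes, 1 panel per gene) for 5 conditions at 3 stages (x axis); each point is a library, the black bar the mean of 3 libraries and the vertical line ± 1 SD, cut off at 0. The lowest cyp21a2.1.L mean is 0.234 CPM with MO1 at stage 37/38 and the highest 2.08 CPM with 10 ng cMO at the same stage, and the MO2 points of cyp11a1.S lie under the control points at stages 35/36 and 37/38.

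Counted over all members, no single stage gave a call in the comparisons that could be tested against the equal cMO. For MO1 at stage 35/36 edgeR and DESeq2 called 0 of 6, where edgeR called 0.39% of all genes. An unadjusted p under 0.05 was found for 3 members, and for 2030 of all 31817 genes (2294 at stage 37/38). The replicate block called 2 members at stage 35/36. For the block and for DESeq2 no share over all genes was counted, here or for the gene lists below. Without overlap and lower with MO1 were 3 of 6 members, as were 6.25% of all genes, and the member median was -0.85 against -0.01 over all genes. At stage 41 MO1 gave 0 of 6 called by either tool (2 with an unadjusted p under 0.05, 2 with the block). Of all genes edgeR called 1.51% there, and 3803 of 31817 had an unadjusted p under 0.05. Without overlap cyp21a2.1.L was lower and hsd3b1.S higher, as were 5.06% and 6.44% of all genes, and the median was -0.25 against 0.00 over all genes.

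For MO2 edgeR and DESeq2 called 0 of 6 members at each stage, where edgeR called 0.0189%, 0.0974% and 0.412% of all genes at stages 35/36, 37/38 and 41. An unadjusted p under 0.05 was found for 2, 2 and 0 members in that order, and for 1700, 1657 and 2765 of 31817 genes. These counts over all genes also stand beside the unadjusted counts of the gene lists below. Lower without overlap were 1 member at stage 35/36 (4.57% of all genes) and 2 at stage 37/38 (6.97%), and at stage 41 star.L was higher without overlap (5.63%). The member medians were -0.43, -0.43 and 0.30. Without the library that stood apart, the stage 35/36 values were -1.88 ± 0.54 for cyp11a1.S (adjusted p = 0.289) and -1.34 ± 0.71 for cyp21a2.1.L (adjusted p = 0.989).

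Against uninjected embryos edgeR and DESeq2 again called 0 of 6 members in the 5 comparisons without MO1 at stage 37/38. An unadjusted p under 0.05 was found for 2 members in each of them, except for MO2 at stage 37/38 with 1. Among 31817 genes it was found for 2323 (MO1) and 1997 (MO2) at stage 35/36 and 2071 (MO2) at stage 37/38. At stage 41 it was found for 3793 (MO1) and 3259 (MO2). Of all genes, 0.449% (MO1) and 0% (MO2) were called at stage 35/36, 0.0629% (MO2) at stage 37/38, and 1.87% (MO1) and 0.735% (MO2) at stage 41. In every one of these 5 comparisons cyp21a2.1.L and cyp11a1.S had negative log2 fold changes, while the other members had values on both sides of 0. The value nearest 0, for cyp21a2.1.L with MO2 at stage 41, was -0.10 (edgeR adjusted p = 0.988). It changed sign under 2 of 13 alternatives. The ERFE libraries are the same as in the comparisons with cMO, so these values are no second set of embryos. ERFE and cMO libraries were also paired by replicate number, the stage 37/38 MO1 pairs left out. Lower in the ERFE library were cyp21a2.1.L in 14 of 15 pairs, cyp11a1.S in 13, star.S in 9, star.L in 8, hsd3b1.L in 9 and hsd3b1.S in 5. These pairs pool both morpholinos and all stages, are not replicates of a condition, and no share over all genes was counted. They include the library that stood apart, with 0.227 against 0.377 CPM for cyp21a2.1.L and 0.808 against 0.841 CPM for cyp11a1.S.

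**Figure D3:**
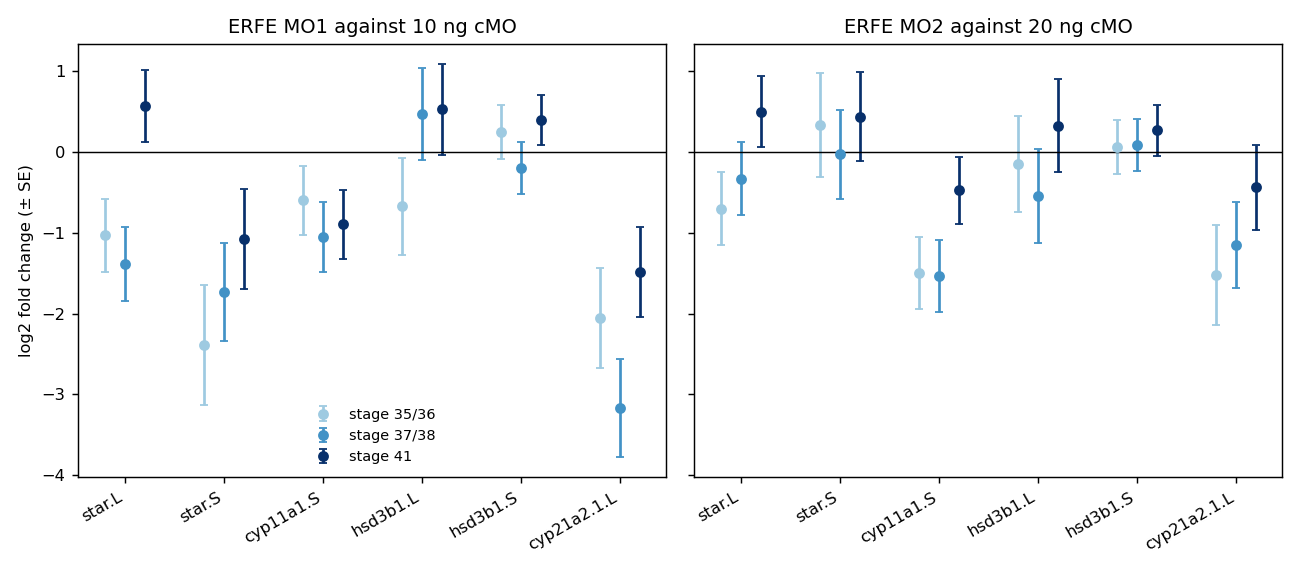
Log2 fold change (y axis) of the 6 members (x axis) for MO1 (left) and MO2 (right) against the equal amount of cMO; points are edgeR estimates, shaded by stage, and bars ± 1 SE. The MO1 point of cyp21a2.1.L at stage 37/38, at -3.17, is the contrast that led to the choice of genes, and the hsd3b1 points lie on both sides of 0.

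In normal development 1 member was called between neighbouring stages. In uninjected embryos edgeR and DESeq2 called 0 of 6 members from stage 35/36 to 37/38, with 0 at an unadjusted p under 0.05. There edgeR called 0.0723% of all genes, and 2958 of 31817 had an unadjusted p under 0.05. From stage 37/38 to 41 star.S fell from 0.228, 0.615 and 0.745 CPM to 0.224, 0.159 and 0.1246 CPM without overlap, by 1.65 ± 0.60 on the log2 scale (edgeR adjusted p = 0.0349). It was 1 of 6 called there against 30.1% of all genes, and the call was lost without replicate 2 or 3 of either uninjected group (adjusted p between 0.0858 and 0.152).

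From stage 35/36 to 41 each call of the main edgeR fit was of a rise. With 10 ng cMO star.L fell by 0.91 on the log2 scale (edgeR adjusted p = 0.103). That fall was called under 3 of 13 alternatives, with a lowest adjusted p of 0.0170. The called members were not the same in each condition, which does not show that the conditions differed. For hsd3b1.S the log2 fold change was positive in every condition, from 0.57 (20 ng cMO) to 0.97 (MO1). No member passed in the change of the MO1 or MO2 response over this interval. Of all 31817 genes, 16022 (uninjected) and 14873 (20 ng cMO) had an unadjusted p under 0.05 from stage 35/36 to 41. In uninjected embryos 0 of 6 were called by edgeR or DESeq2 (1 with an unadjusted p under 0.05), where 43.1% of all genes were; hsd3b1.S had 0.70 ± 0.33 (adjusted p = 0.0832, 0.0458 without the library that stood apart, 0.0459 with the replicate block) and cyp21a2.1.L had 0.84 ± 0.55 (adjusted p = 0.220, 0.0361 with the block, of a range up to 0.528). With 10 ng cMO hsd3b1.S rose by 0.82 ± 0.33 (adjusted p = 0.0447; 38.3% of all genes called), a call lost without replicate 1, 2 or 3 at stage 35/36 or replicate 2 or 3 at stage 41. With 20 ng cMO edgeR and DESeq2 called 0 of 6, with 0 at an unadjusted p under 0.05, and edgeR 38.3% of all genes; a lane term or the replicate block called 1. With MO1 hsd3b1.S rose by 0.97 ± 0.32 (adjusted p = 0.0149) and hsd3b1.L by 1.54 ± 0.60 (adjusted p = 0.0357), where 42% of all genes were called. The hsd3b1.S call was lost without MO1 stage 35/36 replicate 3 (0.0691), and the hsd3b1.L call without replicate 1 or 3 at stage 35/36 or replicate 2 or 3 at stage 41.

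With MO2 cyp21a2.1.L and cyp11a1.S rose from stage 35/36 to 41. The level of cyp21a2.1.L rose 4.55-fold in mean CPM, with a log2 fold change of 2.11 ± 0.61 (adjusted p = 0.00800), and no stage 41 library overlapped a stage 35/36 library. Mean cyp11a1.S rose 2.30-fold (1.15 ± 0.45, adjusted p = 0.0495), also without overlap. The called members were 2 of 6, near the share of 31.9% called over all genes, so the count does not set the members apart. Higher without overlap were 3 of 6, the other being star.L, which was not called (edgeR adjusted p = 0.205). The share of all genes higher without overlap is not given here. Without the library that stood apart, cyp21a2.1.L had 1.92 ± 0.70 (adjusted p = 0.0337), cyp11a1.S 1.52 ± 0.54 (0.0273) and hsd3b1.S was called too, at 1.51 (0.00112). The cyp21a2.1.L call was lost without MO2 stage 41 replicate 2 (0.0571), and the cyp11a1.S call without replicate 2 or 3 of either MO2 group (0.0539 to 0.324). The change of the MO2 response over the same interval, which sets this rise against that of the 20 ng cMO, was 1.09 ± 0.81 for cyp21a2.1.L and 1.02 ± 0.61 for cyp11a1.S, and neither passed.

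Ordered by mean CPM over the 15 groups, neighbours rarely differed beyond their spread. For 5 of the members all 14 neighbouring pairs of groups lay within the larger SD of the pair, and for star.S 13 of 14 did. For cyp21a2.1.L the lowest means were 0.234, 0.259 and 0.279 CPM (MO1 at stages 37/38 and 35/36, MO2 at stage 35/36), and the highest were 2.002 and 2.08 CPM (20 and 10 ng cMO at stage 37/38).

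The members varied together to different degrees over the 45 libraries, which share conditions and stages. Pearson's r of log2 CPM between cyp21a2.1.L and cyp11a1.S was 0.64 over all libraries, 0.60 in the 27 uninjected and cMO libraries and 0.23 in the 18 ERFE libraries. Between cyp21a2.1.L and star.S it was 0.65, 0.54 and 0.70 over the same sets. Between cyp21a2.1.L and hsd3b1.L it was 0.74 in the 27 control libraries and 0.38 in the 18 ERFE libraries. The copies of star had an r of 0.44 and those of hsd3b1 an r of 0.37 over 45 libraries. These values describe libraries of 15 groups with counts as low as those above, and no test was made.

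**Figure D4:**
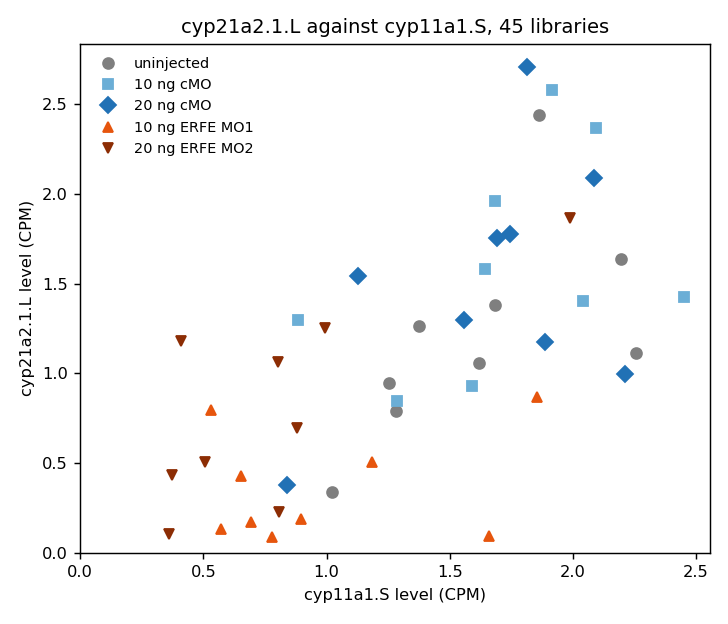
Level of cyp21a2.1.L (y axis, CPM) against that of cyp11a1.S (x axis, CPM), with 1 point per library and a colour and symbol per condition. Over all 45 libraries, which include those of the contrast that led to the choice, Pearson's r of log2 CPM is 0.64. The MO1 points stay at or under 0.870 CPM of cyp21a2.1.L while cyp11a1.S in them runs from 0.529 to 1.85 CPM.

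The genes whose pattern over the 45 libraries was most like that of cyp21a2.1.L, by Pearson's r of log2 CPM, were fgb.S (0.833), ttpa.L (0.828), trim16.S (0.828), myog.L (0.814) and msc.L (0.810). After the mean of each stage was subtracted they were msc.L (0.837), trim16.S (0.832), fxyd2.L (0.817), ttpa.L (0.817) and fgb.S (0.810). Some of these are genes of other tissues: fgb encodes a fibrinogen chain made in the liver, ttpa a liver vitamin E carrier, and myog a muscle regulator. No tissue is assigned here to trim16.S, msc.L and fxyd2.L. No member is annotated in RefSeq (Xenopus_laevis_v10.1) as overlapping a neighbouring gene, for the 5 of 6 members found there.

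Liver genes were low in the same groups, and their part in the results was not tested. Summed over the list of liver markers, the mean level was 1883, 2813 and 3204 CPM with 10 ng cMO at the 3 stages and 1134, 1726 and 2809 CPM with MO1. It was 1991, 2623 and 3201 CPM with 20 ng cMO and 1005, 1405 and 1971 CPM with MO2. Of 19 tested liver genes edgeR called 1 and 2 lower with MO1 at stages 35/36 and 41, against 0.0377% and 0.534% of all genes, and none was higher. The replicate block called 2 and 4. Stage 37/38, whose MO1 contrast led to the choice, is left out of these MO1 counts. With MO2 edgeR called 0, 1 and 3 lower at the 3 stages in turn, DESeq2 3, 3 and 5, and the replicate block 6, 7 and 9. For DESeq2 and the block no share over all genes was counted. Where edgeR called 0, 11 liver genes had an unadjusted p under 0.05, against 1700 of 31817 genes. Of all genes 0.0471% and 0.173% were called lower with MO2 at stages 37/38 and 41. The fibrinogen gene fgb.S fell by 1.54 at stage 35/36 (adjusted p = 0.0265) and by 1.44 at stage 41 (adjusted p = 0.0211) with MO1. The stage score was also lower with the morpholinos at stage 41, at 0.674 (MO1) and 0.633 (MO2) against 0.758 and 0.762 in their cMO groups. Its ranges overlapped between the groups, but each ERFE library scored below the cMO library of the same number. Replicates 1, 2 and 3 had 0.543, 0.758 and 0.720 with MO1 against 0.576, 0.855 and 0.842 with 10 ng cMO. With MO2 they had 0.493, 0.685 and 0.720 against 0.563, 0.830 and 0.891 with 20 ng cMO.

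Other genes that mark or serve interrenal cells gave no call with edgeR. The list of regulators and cofactors held 18 tested genes of 9 symbols, among them nr5a1, the transcription factor that specifies steroid-making cells in mammals, nr0b1, and the electron carriers fdx1, fdxr and por. Of these 18, edgeR and DESeq2 called 0 in each of the 6 comparisons with cMO (1 to 3 with an unadjusted p under 0.05, and 0 or 1 with the replicate block), and the list medians lay between -0.12 and 0.06. The mean over libraries was 0.838 CPM for nr5a1.L and 0.553 CPM for nr5a1.S, with every library above 0 for both. The cofactor rows por.L and fdx1.L had means of 127 and 67.0 CPM. Whether such rows report on interrenal cells in a whole embryo was not tested. The row of mc2r, the receptor through which ACTH drives the adrenal, held 156 counts in all, between 0 and 0.463 CPM, and did not pass the filter. Chromaffin and sympathetic genes, the neighbours of interrenal cells, had 0 of 20 called by edgeR and DESeq2 in each comparison (0 to 6 with an unadjusted p under 0.05, and 5 with the replicate block for MO1 at stage 41), medians between -0.13 and 0.19, and group means of the summed level between 185 and 218 CPM.

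Among other steroid enzymes edgeR called 1 of 30 tested genes lower with MO1 and 2 lower with MO2 at stage 41, where 0.534% and 0.173% of all genes were called lower, and none was higher. The bile acid and steroid reductase gene akr1d1.S had 12.5, 20.5 and 15.3 CPM with MO1 against 22.0, 38.99 and 40.3 CPM with 10 ng cMO, a log2 fold change of -1.07 ± 0.29 (adjusted p = 0.0464). The sulfotransferase sult2a1.L, which conjugates steroids and bile acids, had 9.48, 9.03 and 12.8 CPM with MO2 against 15.1, 17.7 and 24.5 CPM with 20 ng cMO (-0.87 ± 0.19, adjusted p = 0.0220). The groups did not overlap for either gene. The related sult2b1.S had -0.68 ± 0.16 with MO2 (adjusted p = 0.0390). No call was shared by the other morpholino at stage 41. With MO1 the edgeR values were 0.02 ± 0.18 for sult2a1.L (adjusted p = 0.982) and -0.35 ± 0.15 for sult2b1.S (adjusted p = 0.346). With MO2 akr1d1.S had -0.99 ± 0.29 (edgeR adjusted p = 0.132). With the replicate block 8 genes of the list were called for MO1 and 7 for MO2 at stage 41, where no share over all genes was counted. At the earlier stages edgeR and DESeq2 called 0, with 0 or 1 at an unadjusted p under 0.05.

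Among targets of the glucocorticoid receptor, which corticosteroids bind, every edgeR call was of a higher level. At stage 41 edgeR called 4 of 19 higher with MO1 and 2 with MO2, where 0.971% and 0.239% of all genes were called higher. The replicate block called 8 and 7, and neither their direction nor a share over all genes was counted for it. The list medians were 0.36 and 0.36 against 0.00 and -0.01 over all genes. Outside the MO1 contrast at stage 37/38 edgeR and DESeq2 called 0 at the earlier stages (1 to 3 with an unadjusted p under 0.05), with medians between 0.05 and 0.09. The gluconeogenic enzyme gene g6pc.S had 28.1, 16.2 and 24.5 CPM with MO1 against 11.0, 9.13 and 3.96 CPM with 10 ng cMO, and 22.5, 22.8 and 22.1 CPM with MO2 against 9.45, 7.04 and 2.86 CPM with 20 ng cMO. Both ERFE groups lay above their cMO groups without overlap, with log2 fold changes of 1.52 ± 0.34 (adjusted p = 0.0127) and 1.799 ± 0.34 (adjusted p = 0.0101). Its partner copy g6pc.L was higher in both too (1.84 ± 0.47, adjusted p = 0.0364, and 2.35 ± 0.47, adjusted p = 0.0151). From stage 35/36 to 41 mean g6pc.S fell in uninjected embryos (28.6 to 5.70 CPM), with MO1 (32.5 to 22.9 CPM) and with MO2 (30.3 to 22.5 CPM). Mean g6pc.L fell in uninjected embryos (6.63 to 2.16 CPM) but rose with MO1 (4.72 to 10.6 CPM) and MO2 (7.64 to 19.4 CPM).

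The remaining called targets were found with MO1. The salt-handling kinase gene sgk1.L had 149, 111 and 101 CPM with MO1 against 89.1, 58.9 and 54.0 CPM with cMO (0.84 ± 0.21, adjusted p = 0.0273), without overlap, and the clock gene per1.L had 0.36 ± 0.09 (adjusted p = 0.0313). The lower stage score of the ERFE groups at stage 41 stands beside these values, and its part in them was not tested. The steroid receptor genes themselves gave 0 of 12 called by edgeR and DESeq2 in each of the 6 comparisons, with 0 to 2 at an unadjusted p under 0.05, and the replicate block called 1 with MO1 at stage 41.

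**Figure D5:**
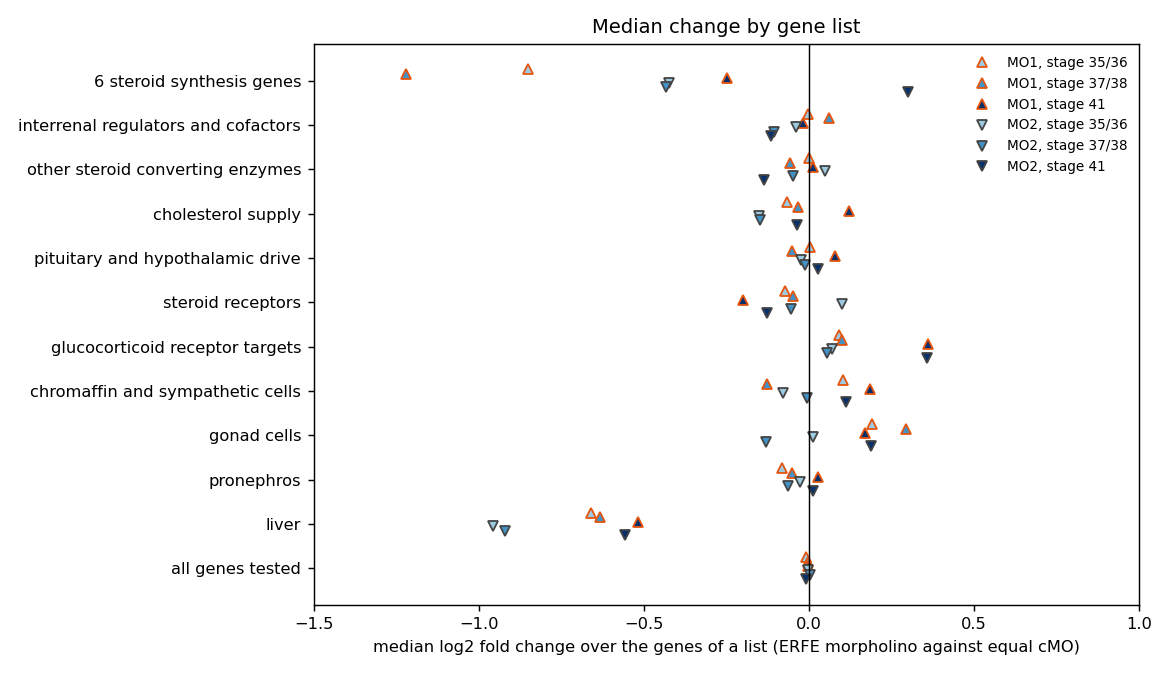
Median log2 fold change (x axis) of each gene list (rows) for MO1 (upward triangles) and MO2 (downward triangles) against the equal amount of cMO, shaded by stage; each point is the median of the tested genes of a list in 1 comparison. The 6 members span -1.22 (MO1 at stage 37/38, which led to their choice) to 0.30, the liver list lies between -0.96 and -0.52, and the glucocorticoid receptor targets reach 0.36 with both morpholinos at stage 41.

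In the comparisons that could be tested, edgeR made 1 call in the list for cholesterol supply. It made 0 in the list for the pituitary and hypothalamic drive. Of 26 cholesterol genes stard5.L, a sterol carrier, was higher with MO1 at stage 41 (0.52 ± 0.13, adjusted p = 0.0323), where 0.971% of all genes were called higher. Up to 7 cholesterol genes had an unadjusted p under 0.05 in a comparison without a call. DESeq2 called 2 with MO1 and 0 with MO2 at stage 41, and the replicate block 7 and 5. For neither was a share over all genes counted. Of 21 pituitary and hypothalamic genes edgeR and DESeq2 called 0 (0 to 3 with an unadjusted p under 0.05) outside the stage 37/38 MO1 contrast, in which the receptor gene crhr2.L had a log2 fold change of -0.81 ± 0.19. The counts for interrenal, chromaffin, steroid enzyme, receptor and kidney genes include that contrast. Those for liver, glucocorticoid, cholesterol and pituitary genes leave it out. Among all listed genes edgeR called crhr2.L, tdo2.L and fgb.S lower and lhcgr.L higher in it, where 0.6% of all genes were called.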

How the data were processed

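RNA-seq libraries of whole embryos were made from Trizol-extracted total RNA with a TruSeq RNA kit, per the labels' protocols. The deposited counts are whole-number read counts per gene and library, made by the authors; STAR 2.5.2a and featureCounts 1.5.0-p1 are named in the submitters' processing notes, and the sources used here do not give the genome build, the annotation or the treatment of multiply mapped reads. Reads of near-identical copies (.L and .S) may have been split or dropped. The kit does not mark strand.

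Counts were fitted with edgeR 4.0.16 (R 4.3.3; quasi-likelihood F-test, two-sided, TMM scaling with factors 0.936 to 1.07, filterByExpr with a count minimum of 10) with 1 term for each of 15 groups over all 45 libraries, leaving 30 residual degrees of freedom; genes tested held 99.97% of counts. An adjusted p (Benjamini-Hochberg over 31817 genes) under 0.05 was called, in 41 comparisons. Fold changes used edgeR's default prior count, correlations log2 CPM with a prior count of 3, and SDs are over 3 libraries. The stage score is a slope over 5051 genes called from stage 35/36 to 41 in uninjected embryos, members left out. The fits were tested on simulated data.

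Members and lists were chosen with earlier results of these data known. All members are described; of each list up to 4 called genes with the smallest adjusted p are named, with the 5 genes most like cyp21a2.1.L and the targeted gene. The labels do not say whether replicates came from separate clutches, so p-values measure the spread between these libraries, which may be technical. Same-numbered libraries deviated together (r over 0.1 in 17 of 18 pairs; every pair in 5 of 6 comparisons with cMO, not MO2 at stage 35/36), so a replicate block within each stage was fitted. Alternatives were RLE scaling, no gene filter, a lane term, DESeq2 1.42.0, stages fitted alone and leaving out each library. Sequences of the genes were not used here.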

Additional observations from a re-analysis of the deposited data

How the results depend on the processing

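Of 3036 tested member values under alternatives, 2949 kept their direction and side of the threshold or were called in neither fit, 36 lost a call, 36 gained one, 15 moved and 0 reversed; all 186 sign changes were in values called in neither fit. Counts of members called stayed within 1.5 times in 451 of 506 cases. For the members, comparisons that use the MO1 contrast of stage 37/38 have no test. Of their 642 log2 fold changes under alternatives, 635 lay within 1 SE of the value reported. The replicate block moved the count from 0 to 2 for MO1 against cMO at stages 35/36 and 41, from 0 to 1 for MO2 at stage 37/38 (cMO and uninjected) and MO1 against uninjected at stage 41, from 0 to 2 for the MO2 mean of stages 35/36 and 41, from 1 to 2 for the MO2 mean of 3 stages, and, from stage 35/36 to 41, from 0 to 2 (uninjected), 1 to 2 (10 ng cMO) and 0 to 1 (20 ng cMO). A lane term moved it from 0 to 1 for MO1 against cMO at stages 35/36 and 41, MO2 at stage 37/38, MO1 against uninjected at stage 41, the MO2 mean of stages 35/36 and 41, and uninjected and 20 ng cMO from stage 35/36 to 41; from 1 to 2 for the MO2 mean of 3 stages and 10 ng cMO; and from 2 to 1 for MO1 from stage 35/36 to 41. DESeq2 gave 2 in place of 1 for the MO2 mean of 3 stages. Without the gene filter, or with stages compared alone, the counts were 0 in place of 1 (10 ng cMO from stage 35/36 to 41) and 1 in place of 2 (MO2 from stage 35/36 to 41, and the MO1 mean of stages 35/36 and 41); RLE scaling also gave 1 for MO2 from stage 35/36 to 41. The cause of these moves was not tested. Leaving out 1 library each gave 0 to 1 for uninjected from stage 37/38 to 41 and from 35/36 to 41, 0 to 2 for 10 ng cMO, MO1 and MO2 from stage 35/36 to 41, and 1 to 2 for the MO2 mean of 3 stages and the MO1 mean of stages 35/36 and 41. A library held 2 to 97 counts of cyp21a2.1.L, and the part of depth in the single-stage results was not tested.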

Other observations

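The receptor gene of luteinizing hormone, lhcgr.L, a marker of gonadal steroid-making cells in the list of gonad genes, was higher with MO1 than with cMO at stage 35/36. It had 3.36, 0.576 and 1.28 CPM with MO1 against 0.221, 0.150 and 0.171 CPM with 10 ng cMO, without overlap, a log2 fold change of 3.26 ± 0.69 (edgeR adjusted p = 0.0188). It was 1 of 18 gonad genes called there, where edgeR called 0.39% of all genes and 0.352% as higher. Against uninjected embryos the value was 2.69 ± 0.66 (adjusted p = 0.0536), and against cMO at stage 41 it was 2.13 ± 0.67 (adjusted p = 0.113), and neither passed. With MO2 at that stage lhcgr.L had 0.631, 0.103 and 0.127 CPM, against 0.203, 0.214 and 0.2001 CPM with 20 ng cMO, and the groups overlapped. The highest of these MO2 values belongs to the library that stood apart.

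Among 26 kidney genes nphs1.S, a podocyte gene, was higher with MO1 at stage 41, where edgeR called 0.971% of all genes higher. Its mean was 5.07 against 2.73 CPM (log2 fold change 0.89 ± 0.18, edgeR adjusted p = 0.00423). With MO2 at stage 41 nphs1.S had -0.01 ± 0.18 (edgeR adjusted p = 0.999). No other kidney gene was called by edgeR in the 6 comparisons with cMO. In the other 5 comparisons 2 to 5 kidney genes had an unadjusted p under 0.05, as had 1657 to 2765 of 31817 genes. The replicate block called 7 at stage 41 with MO1, and DESeq2 called 1 gene with MO1 at stage 37/38. For neither was a share over all genes counted.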
